A study of Mus musculus with 5 samples.

Results

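The genes for cholesterol and fatty acid synthesis were followed in plasma cells (PCs) of mouse bone marrow before and after culture. The 36 members were 17 enzymes that lead from acetyl-CoA to cholesterol, 6 regulators and carriers of the sterol-sensing pathway, and 13 genes that make, elongate, desaturate or activate fatty acids. They were taken by gene symbol from the 18193 genes that had a probe set of their own on the array, and where a gene had several such probe sets the one with the highest mean log2 intensity over the 5 arrays stood for it. All 36 members passed the filter on low values, an intensity of 50 or more in at least 2 arrays. A probe set is a group of short DNA probes that read 1 transcript, so intensities were compared between arrays for the same probe set and never between genes.

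The PCs came from C57BL/6J mice that had been primed with NP-CGG and boosted 2 times, with the bone marrow taken over 30 days later. They were isolated with magnetic beads, by removal of cells carrying B220 or CD49b and then enrichment for CD138. Ex vivo PCs (n = 2 arrays, 1 in each of 2 experiments) were lysed at once, and cultured PCs (n = 3 arrays, 1 in experiment 1 and 2 in experiment 2) were kept for 3 days with ST2 cells and the cytokine APRIL at physiological oxygen and then sorted by flow cytometry. ST2 is 1 stromal line, fibroblast-like cells grown from mouse bone marrow, and APRIL is a survival factor of the TNF family. The comparison asked how far the PCs kept their transcriptome in culture. Magnetic isolation alone or with a later sort, and culture itself, cannot be told apart as sources of a difference between the groups. The sources used here do not say whether the 2 cultured arrays of experiment 2 came from separate cultures, so the spread between them may be technical.

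Cholesterol synthesis starts with the joining of acetyl-CoA units to mevalonate, goes on through isoprenoid units to squalene, and ends with the closing and trimming of the sterol rings. Cells set the pathway by a sensor in the endoplasmic reticulum: SCAP carries the SREBP transcription factors to the Golgi for cleavage when sterols are low, and the INSIG proteins hold SCAP back when sterols are high. SREBP-2 (gene Srebf2) acts mainly on sterol genes and SREBP-1c (gene Srebf1) mainly on fatty acid genes. PCs secrete antibody at a high rate from an extended endoplasmic reticulum, whose membranes are built from these lipids.

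SREBPs bind sterol regulatory elements together with NF-Y at CCAAT boxes and Sp1 at GC boxes, so the 250 bases before the transcription start are shown for 1 member each of the mevalonate, later sterol, regulator and fatty acid genes, that with the largest change without the block among those with an entry, and for the member that held the sterol regulatory element core. Sequences are from RefSeq (GRCm38.p6), 5′ to 3′ on the strand of the gene. Capitals mark the sterol regulatory element core TCACNCCAC, the CCAAT box, the GC box GGGCGG and the E-box CACGTG, each searched on both strands. None of these motifs contains another. The windows lie at chr13:119690101-119690350 (+) for Hmgcs1, chr13:8885356-8885605 (+) for Idi1, chr9:42264301-42264550 (-) for Sc5d, chr5:28071162-28071411 (+) for Insig1 and chr3:129532136-129532385 (+) for Elovl6.
Hmgcs1: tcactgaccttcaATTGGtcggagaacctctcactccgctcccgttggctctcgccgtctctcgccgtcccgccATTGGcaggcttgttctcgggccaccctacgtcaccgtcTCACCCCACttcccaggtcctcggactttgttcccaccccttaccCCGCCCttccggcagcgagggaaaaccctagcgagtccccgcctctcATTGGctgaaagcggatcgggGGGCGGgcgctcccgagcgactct
Idi1: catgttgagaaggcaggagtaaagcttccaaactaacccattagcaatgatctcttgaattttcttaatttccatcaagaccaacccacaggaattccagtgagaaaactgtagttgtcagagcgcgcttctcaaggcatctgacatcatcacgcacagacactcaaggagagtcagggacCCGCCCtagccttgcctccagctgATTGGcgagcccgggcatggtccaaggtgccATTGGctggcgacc
Sc5d: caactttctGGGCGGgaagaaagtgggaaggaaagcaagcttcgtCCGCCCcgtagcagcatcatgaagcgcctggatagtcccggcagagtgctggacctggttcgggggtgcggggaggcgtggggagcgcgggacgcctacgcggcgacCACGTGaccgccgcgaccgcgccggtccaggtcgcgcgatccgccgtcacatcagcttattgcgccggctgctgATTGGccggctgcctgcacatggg
Insig1: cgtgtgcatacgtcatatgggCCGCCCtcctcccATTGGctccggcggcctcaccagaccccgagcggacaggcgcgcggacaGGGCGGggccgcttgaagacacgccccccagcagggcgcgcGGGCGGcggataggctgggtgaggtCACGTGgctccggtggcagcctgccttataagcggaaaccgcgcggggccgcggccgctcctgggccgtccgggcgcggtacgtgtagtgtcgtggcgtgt
Elovl6: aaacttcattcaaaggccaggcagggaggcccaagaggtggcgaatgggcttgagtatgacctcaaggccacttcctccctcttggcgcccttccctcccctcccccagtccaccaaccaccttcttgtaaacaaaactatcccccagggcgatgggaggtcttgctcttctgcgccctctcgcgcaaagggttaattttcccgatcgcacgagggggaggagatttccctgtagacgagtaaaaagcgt

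Over windows that also took in the 50 bases after the start, 29 members had an entry. No entry was found for Fdps, Fdft1, Sqle, Stard4, Scd1, Scd2 and Fads1. Some had several starts, so there were 38 member promoters. The sterol regulatory element core was found in 1 of the 38, that of Hmgcs1, where it began 137 bases before the start, and in 1.24% of all 32851 promoters. The CCAAT box was found in 25 of the 38 and 37.4% of all promoters, the GC box in 29 and 35.7%, and the E-box in 7 and 7.15%. Elovl6, whose brightest probe set had the largest fitted change of the 36, held none of the 4 motifs in its window. A match of letters is a description and not a bound site.

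In the comparison of cultured with ex vivo PCs by limma, 0 of the 36 members passed an adjusted p of 0.05, and 6 had an unadjusted p under that value, against 6.69% of the 13578 genes tested. Over the whole array 0.0459% of 30477 probe sets passed. With experiment as a replicate block, which compares arrays within each experiment, 2 members rose, Sqle and Fads1, and none fell, and 17 had an unadjusted p under 0.05, against 17.3% of genes. In that fit 1.24% of all probe sets rose and 0.561% fell. Both calls were lost when the first cultured array of experiment 2 was left out of the blocked fit (limma adjusted p = 0.0835 for Sqle and 0.0512 for Fads1), when the second was (0.159 and 0.0915), and when the pair was averaged to 1 array (0.107 and 0.0700). A permutation of 2 against 3 arrays cannot give a two-sided exact p below 0.1. Changes below are on the log2 scale, with the standard error (SE) of the blocked limma fit. Levels are log2 intensities, with experiment 1 named first.

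Direction was more often upward than over all genes. In 22 of the 36 members the cultured array was higher in all 3 pairs of arrays within an experiment, against 18.9% of the 13578 genes tested, and in 7 it was lower in all 3, against 29.7%. In 9 members all cultured arrays lay above both ex vivo arrays (7.79% of all genes), namely Fdps, Sqle, Cyp51, Msmo1, Insig1, Stard4, Elovl6, Fads1 and Acsl3. Elovl6 was below the floor of the filter in both ex vivo arrays and passed it only through its cultured arrays. Its place among the 9 and the 22 therefore says little about direction. No member had all cultured arrays below both ex vivo arrays (13% of all genes). Both pairs of experiment 2 share 1 ex vivo array, so the 3 pairs are not independent.

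**Figure D1:**
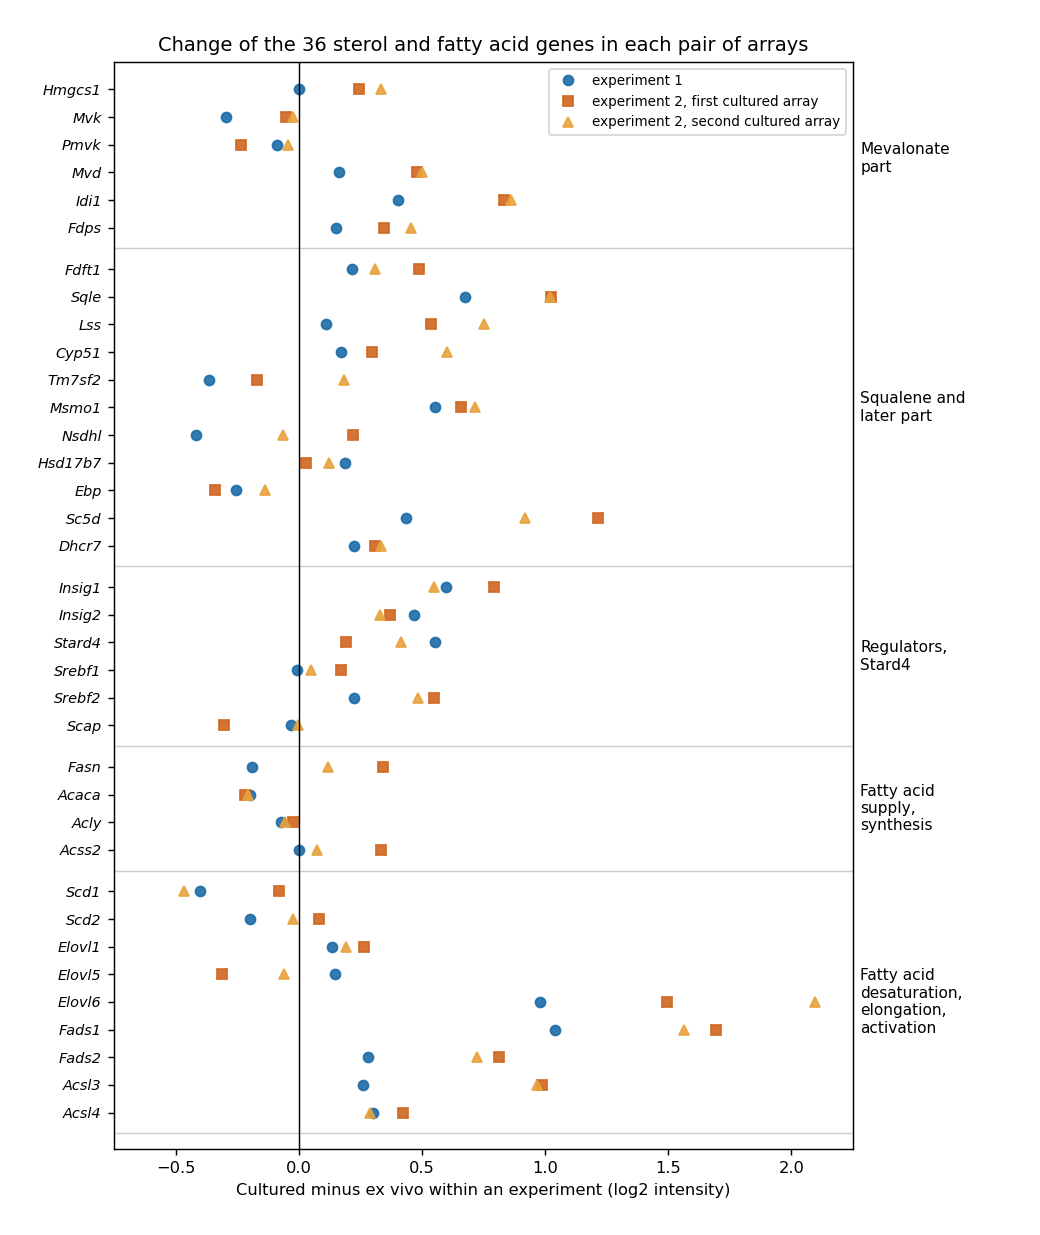
Cultured minus ex vivo log2 intensity for each of the 36 members, by pathway group; circles are experiment 1, and squares and triangles the 2 cultured arrays of experiment 2. Elovl6 and Fads1 lie farthest to the right in all 3 pairs, while Fasn, Acaca, Acly and Acss2 lie between -0.22 and 0.34.

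Of the 6 enzymes that build the isoprenoid units, 4 were higher in all 3 pairs and 2, Mvk and Pmvk, were lower in all 3. Idi1, which interconverts the isoprenoid building blocks, had the largest fitted change of them. Its levels were 7.54 and 6.70 ex vivo and 7.94, 7.54 and 7.56 after culture, a change of 0.66 ± 0.14 (SE, limma adjusted p = 0.0924). The ex vivo array of experiment 1 lay as high as the cultured arrays of experiment 2, so the groups overlapped although each pair was higher after culture. The other probe set of Idi1 had ex vivo levels of 6.40 and 6.01 and cultured levels of 7.42, 7.71 and 7.81, without overlap, and rose by 1.44 (limma adjusted p = 0.0324 with the block).

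Mvd, which makes isopentenyl diphosphate, had levels of 7.91 and 7.43 ex vivo and 8.07, 7.91 and 7.93 after culture. Fdps, which makes farnesyl diphosphate, had 7.88 in both ex vivo arrays and 8.03, 8.23 and 8.34 after culture. All cultured arrays were thus above both ex vivo arrays for Fdps, while for Mvd the ex vivo array of experiment 1 reached the cultured level. The fitted changes were 0.35 for Mvd and 0.29 for Fdps, and neither passed the test (limma adjusted p = 0.226 and 0.274). Hmgcs1, which makes HMG-CoA, differed by 0.00 (after rounding) in experiment 1 and by 0.25 and 0.33 in experiment 2. Its 4 other tested probe sets gave the opposite order, 0.28 to 0.64 in experiment 1 and means of -0.04 to 0.22 in experiment 2. The kinases Mvk and Pmvk had fitted changes of -0.15 and -0.12.

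Among the 11 enzymes from squalene synthesis onward, Sqle rose. Sqle is squalene epoxidase, the first step of the pathway that uses molecular oxygen and one of its control points. Its levels were 7.81 and 7.75 ex vivo (mean 7.78 ± 0.04, SD, n = 2) and 8.49, 8.78 and 8.77 after culture (8.68 ± 0.16, SD, n = 3). The groups did not overlap, and the lowest cultured array was that of experiment 1. Without the block the change was 0.90 (limma adjusted p = 0.263), and with it 0.87 ± 0.13, which is 1.83-fold (limma adjusted p = 0.0407).

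Msmo1, the sterol methyl oxidase that removes methyl groups at carbon 4, had levels of 7.11 and 7.17 ex vivo and 7.66, 7.83 and 7.88 after culture. Those groups did not overlap either, and the change was 0.63 ± 0.11 (limma adjusted p = 0.060). Its other probe set rose by 0.70 (limma adjusted p = 0.0461 with the block), although there its levels overlapped between groups. Sc5d, the sterol desaturase, had 7.43 and 7.88 ex vivo and 7.86, 9.09 and 8.80 after culture, with a change of 0.80 ± 0.19 (limma adjusted p = 0.110). The cultured array of experiment 1 lay just below the ex vivo array of experiment 2. The 2 other probe sets of Sc5d gave 0.71 and 0.01, so they did not give 1 size of change.

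Cyp51, the lanosterol demethylase, was at 8.59 and 8.39 ex vivo and at 8.76, 8.68 and 8.99 after culture, without overlap, and its fitted change of 0.33 did not pass the test. Fdft1 (squalene synthase), Lss (lanosterol synthase), Dhcr7 (the last reductase) and Hsd17b7 were also higher in all 3 pairs, with fitted changes of 0.32, 0.41, 0.28 and 0.12. Tm7sf2, Nsdhl and Ebp, which reduce, decarboxylate and isomerise sterol intermediates, had fitted changes of -0.15, -0.13 and -0.25, and of these Ebp was lower in all 3 pairs. None of the enzymes in this paragraph passed the test.

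**Figure D2:**
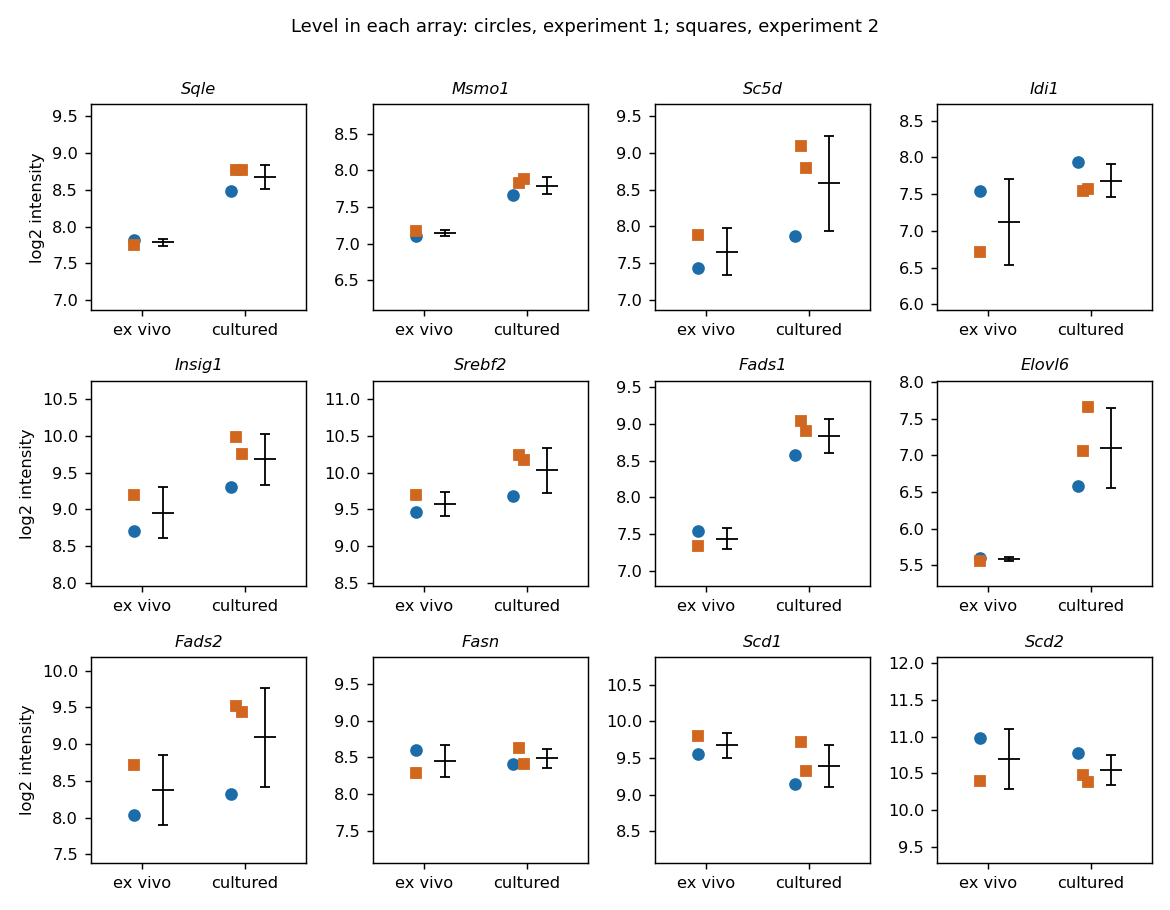
Log2 intensity of 12 members in each array, with circles for experiment 1, squares for experiment 2, and the mean and SD of each group beside them (ex vivo n = 2, cultured n = 3); every panel spans the same number of log2 units. Sqle, Msmo1, Insig1, Fads1 and Elovl6 show cultured arrays above both ex vivo arrays, whereas Fasn, Scd1 and Scd2 overlap.

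Insig1 and Insig2, the anchors that retain SCAP, were both higher in all 3 pairs. Insig1 levels were 8.71 and 9.20 ex vivo and 9.30, 9.99 and 9.75 after culture, and Insig2 levels were 8.20 and 8.84 and then 8.67, 9.21 and 9.16. Cultured arrays lay above both ex vivo arrays for Insig1 and overlapped for Insig2. The changes were 0.64 ± 0.12 and 0.40 ± 0.11, below the threshold of the test (limma adjusted p = 0.0771 and 0.140). When all tested probe sets of a gene were averaged, Insig1, which has 1 probe set, was called (limma adjusted p = 0.0379 over 13578 genes with the block).

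The 2 SREBP genes did not move alike by value. Srebf2 was at 9.46 and 9.69 ex vivo and at 9.68, 10.24 and 10.18 after culture, a change of 0.39 ± 0.12 (limma adjusted p = 0.184). Srebf1 was at 9.96 and 9.22 ex vivo and at 9.95, 9.39 and 9.27 after culture, a change of 0.06 ± 0.11 with the block and of -0.05 without it. For Srebf1 the experiments stood apart and the groups within an experiment did not. The difference between the 2 genes was not tested. Scap had a fitted change of -0.10. Stard4, a sterol carrier protein, was at 7.67 and 7.57 ex vivo and at 8.22, 7.76 and 7.99 after culture, without overlap, a change of 0.41, and another probe set rose by 0.98 (limma adjusted p = 0.0286 with the block).

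Of the 13 fatty acid genes, the 4 that supply acetyl-CoA and build the chain differed by -0.22 to 0.34 over the pairs, and 0 of the 4 were higher in all 3 by their brightest probe sets. Both other tested probe sets of Acly, and the other one of Acss2, were higher in all 3. Fasn, fatty acid synthase, was at 8.60 and 8.29 ex vivo and at 8.41, 8.63 and 8.41 after culture, lower in experiment 1 and higher in experiment 2. Acaca (acetyl-CoA carboxylase), Acly (ATP citrate lyase) and Acss2 (acetyl-CoA synthetase) had fitted changes of -0.21, -0.05 and 0.12. The 9 genes that elongate, desaturate or activate fatty acids included 6 that were higher in all 3 pairs.

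Fads1 rose. It encodes the delta-5 desaturase, which works on polyunsaturated fatty acids. Its levels were 7.54 and 7.34 ex vivo (mean 7.44 ± 0.14, SD, n = 2) and 8.58, 9.03 and 8.90 after culture (8.84 ± 0.24, SD, n = 3), without overlap. The change was 1.40 without the block (limma adjusted p = 0.157) and 1.38 ± 0.16 with it, which is 2.60-fold (limma adjusted p = 0.0258). The other probe set of Fads1 gave 0.79 (limma adjusted p = 0.107). Fads2, the delta-6 desaturase of the same pathway, was at 8.04 and 8.71 ex vivo and at 8.32, 9.52 and 9.44 after culture. Here the cultured array of experiment 1 lay below the ex vivo array of experiment 2, and the change of 0.56 ± 0.15 did not pass the test (limma adjusted p = 0.136). Its 2 other tested probe sets gave 0.17 and 0.12, and the gene mean was 0.28.

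Elovl6, which elongates saturated chains made by Fasn, was at 5.60 and 5.57 ex vivo and at 6.58, 7.06 and 7.66 after culture. Both ex vivo values were below an intensity of 50, so this gene entered the test through its cultured arrays. The direction of its change therefore says little. The fitted change was 1.45 ± 0.26 (limma adjusted p = 0.0645). The other tested probe set of Elovl6 gave 0.50 (limma adjusted p = 0.262), and the mean over both gave 0.97, below the gene means of Fads1 (1.08) and Idi1 (1.05). Scd1 and Scd2, the stearoyl-CoA desaturases, were not higher after culture in all pairs. Scd1 was at 9.55 and 9.79 ex vivo and at 9.15, 9.71 and 9.33 after culture, lower in all 3 pairs, with a fitted change of -0.33 (limma adjusted p = 0.322). Scd2 was at 10.98 and 10.40 and then at 10.78, 10.48 and 10.38, with no direction shared by the 3 pairs.

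Acsl3 and Acsl4, acyl-CoA synthetases, and Elovl1 were higher in all 3 pairs, with fitted changes of 0.67, 0.33 and 0.19, and Elovl5 had -0.04. Acsl3 was at 7.16 and 6.83 ex vivo and at 7.42, 7.82 and 7.79 after culture, without overlap. For Acsl3 the pair of experiment 1 differed by 0.26 and those of experiment 2 by 0.99 and 0.97. No member had a culture change that differed between the experiments in limma's interaction test, which passed 0% of all probe sets and rests on 1 residual degree of freedom. By the brightest probe sets, Acsl3 was the 1 member of 36 with an unadjusted interaction p under 0.05, beside 2008 of all 30477 probe sets. A dimmer probe set each of Hmgcs1, Idi1, Fads2 and Acsl4 also had one. Those of Hmgcs1 and Acsl4 had the smaller change in experiment 2, unlike Acsl3.

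The median change of the sterol enzymes was 0.16 in experiment 1 and 0.31 and 0.33 in the 2 pairs of experiment 2. Those of the fatty acid genes were 0.14, 0.33 and 0.12, and those of the regulators 0.35, 0.28 and 0.37. The sterol median exceeded the fatty acid median by 0.03, -0.02 and 0.21, so its sign was not the same in all pairs. Medians over all genes tested were -0.05, -0.02 and -0.04. The difference between the branches was not tested. By count of brightest probe sets, 12 of 17 sterol enzymes and 6 of 13 fatty acid genes were higher in all 3 pairs. Other tested probe sets of Acly and Acss2 were higher in all 3, and some of Hmgcs1, Fdft1 and Sc5d were not. Over group means the sterol median exceeded the fatty acid median by 0.15. The excess was 0.11 on gene means and 0.050 when the probe set with the highest lowest value was chosen.

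Molecular oxygen is consumed by 8 steps of these pathways, those of Sqle, Cyp51, Msmo1, Sc5d, Scd1, Scd2, Fads1 and Fads2. Their median change was 0.36 in experiment 1 and 0.74 and 0.72 in experiment 2, against 0.14, 0.29 and 0.24 for the other 28 members. The 4 sterol steps among them had medians of 0.49, 0.84 and 0.82. The 4 fatty acid steps had 0.04, 0.45 and 0.35, in experiment 1 below the other 28 members. All 4 oxygen-using sterol enzymes were higher in all 3 pairs, as were Fads1 and Fads2, while Scd1 was lower in all 3 and Scd2 was mixed. Both members called with the block by their brightest probe sets were among these 8, in a fit where 1.24% of all probe sets rose. This depended on the probe set. Of the members called with the block on gene means, Sqle, Msmo1 and Fads1 were among the 8, and Idi1, Insig1 and Stard4 were not.

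**Figure D3:**
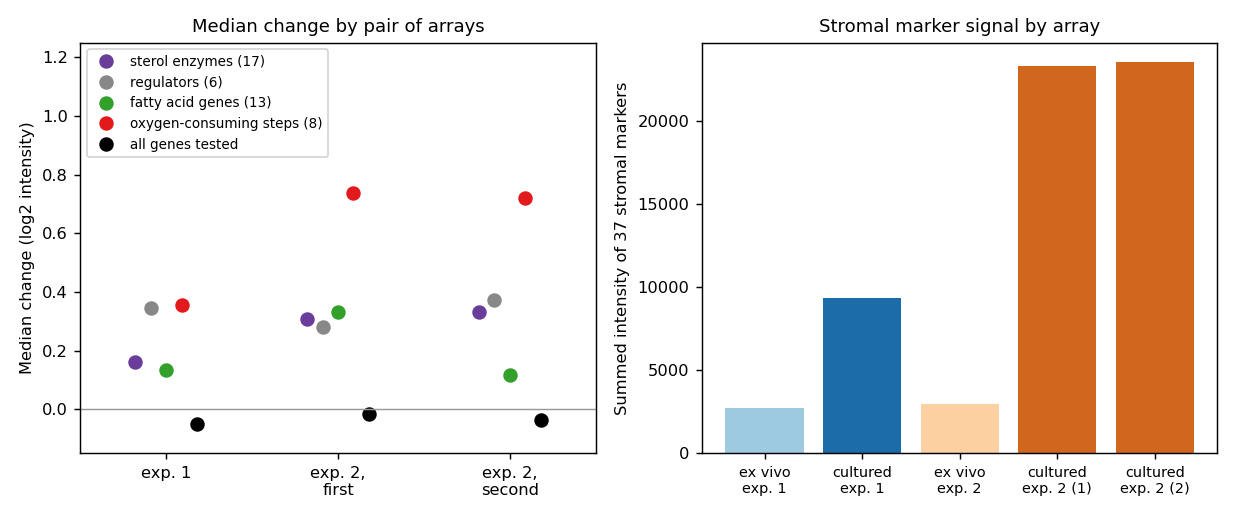
Left, median change of each group of members in each pair of arrays (log2 intensity; number of genes in brackets); right, intensity summed over 37 stromal marker genes in each array. Oxygen-consuming steps had the highest median in all 3 pairs, and the stromal sum was higher in the 3 cultured arrays than in both ex vivo arrays, most so in experiment 2.

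Several members had more than 1 probe set. There were 87 in all, of which 78 were tested, and 26 members had several tested. With the block 5 of the 78 rose, 1 each for Idi1, Sqle, Msmo1, Stard4 and Fads1, and 0 fell. Without it 0 passed. Of the 5, only that of Stard4 was still called in the blocked fit without the first cultured array of experiment 2 (limma adjusted p = 0.0498), and 0 were without the second or with the pair averaged. In 6 members, Fdft1, Hsd17b7, Acaca, Acly, Scd2 and Acsl4, tested probe sets differed in sign. Acsl4 had fitted changes from -0.26 to 0.33, and Cyp51 from 0.25 to 0.69.

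**Figure D4:**
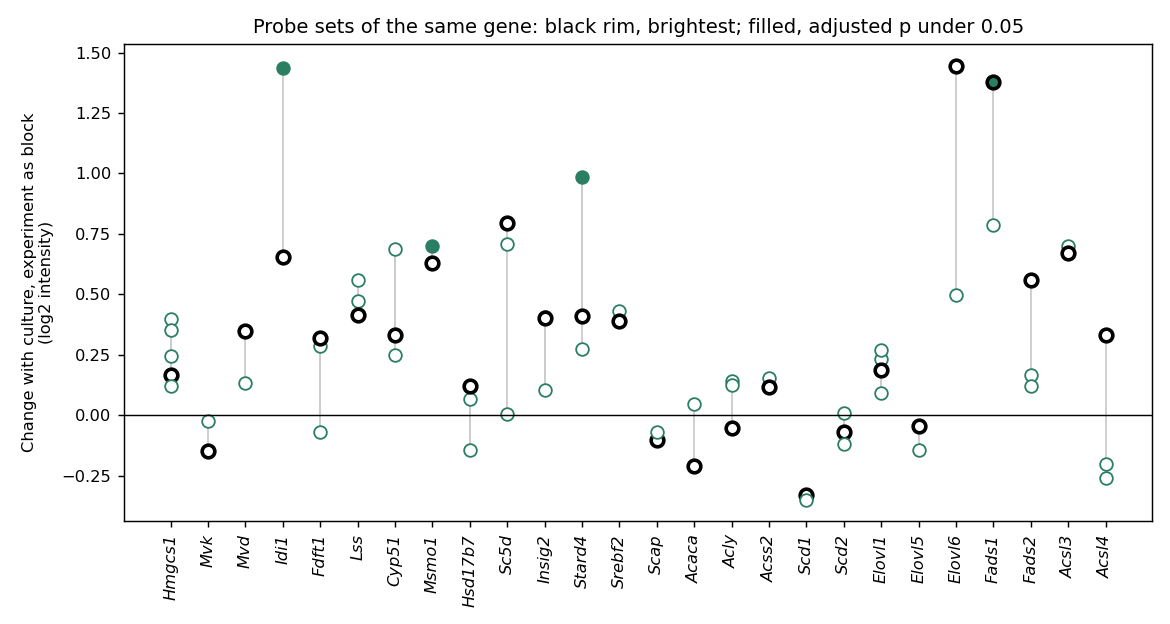
Change with culture from the limma fit with experiment as a block (log2 intensity), for each tested probe set of the 26 members with several; a black rim marks the brightest and a filled point an adjusted p under 0.05. Idi1, Msmo1 and Stard4 were called through a dimmer probe set and Fads1 through its brightest.

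The experiments themselves differed at many members. With culture as a covariate, 15 members differed between experiment 2 and experiment 1 by limma, 8 higher and 7 lower in experiment 2, against 26.8% of all probe sets. The largest differences were those of Acsl4 (1.80), Acly (1.23) and Lss (1.15), and Dhcr7 (-0.77) was the lowest. For Acsl4 the 2 other tested probe sets gave -0.16 and 0.66, for Acly the 2 other tested probe sets gave -0.07 and -0.17, and for Lss they gave 0.26 and -0.70. No probe set of the whole array was called once an ex vivo array, or the single cultured array of experiment 1, was dropped, so no member could be. Once the first or the second cultured array of experiment 2 was dropped, 9 and 6 members were called, against 22.7% and 13.4% of all probe sets.

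Among genes that remove sterols, Abcg1, a cholesterol exporter, fell. It was at 10.26 and 10.12 ex vivo and at 9.10, 8.01 and 8.12 after culture, a change of -1.67 (limma adjusted p = 0.0312 with the block and 0.368 without). Abca1, the other main exporter, was at 9.74 and 9.85 ex vivo and at 8.70, 7.54 and 7.89 after culture, a change of -1.67 (limma adjusted p = 0.0518 with the block). All cultured arrays lay below both ex vivo arrays for both genes. Of 12 tested macrophage markers, 8 had all cultured arrays below both ex vivo arrays, 6 fell and 2, Cd68 and Hmox1, rose with the block, and their median change was -1.22. Of the 14 such markers measured, 6 were below an intensity of 50 in all cultured arrays. Those of the 6 that were tested entered the test through their ex vivo arrays, so their calls say little about direction. C1qa, which was among them, was at 7.49 and 7.31 ex vivo and at 5.27, 5.15 and 5.24 after culture. The summed intensity of the 14 macrophage markers was 2868 and 2237 ex vivo and 3706, 2718 and 2261 after culture, and their part in the changes of Abcg1 and Abca1 was not tested. Of the 8 tested genes for efflux, esterification and lysosomal egress of sterols, Abcg1 was the 1 called, and its call was lost without the first or the second cultured array of experiment 2 (limma adjusted p = 0.0578 and 0.0994). None was called among 4 other genes of sterol and isoprenoid synthesis, 7 other SREBP pathway genes or 15 other tested genes of fatty acid synthesis. Of the 7, 4 were lower in all 3 pairs, against 29.7% of all genes. They were Mylip, Syvn1, Mbtps1 and Erlin2, with fitted changes from -0.49 to -0.16. Me1, malic enzyme, which supplies NADPH, had a change of 0.66 (limma adjusted p = 0.0897).

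Markers of other cells were read beside these results. The 12 PC markers, among them Sdc1, Xbp1 and Jchain, were all measured, 0 passed the test with the block, and their summed intensity was 73623 and 75432 ex vivo and 69063, 69616 and 68503 after culture. Of 37 stromal markers measured, 34 were tested. With the block 20 rose and 1 fell, against 1.24% and 0.561% of all probe sets, and 2 rose without it. With the block 12 and 10 rose without the first or the second cultured array of experiment 2. The summed intensity of the 37 was 2755 and 2963 ex vivo and 9331, 23346 and 23552 after culture. Of them 14 were below an intensity of 50 in both ex vivo arrays. Those of the 14 that were tested entered the test through their cultured arrays, so their calls say little about direction. Col1a1, for example, was at 6.78 and 6.45 ex vivo and at 9.30, 10.97 and 10.77 after culture.

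The stromal signal was thus larger in the cultured arrays of experiment 2 than in that of experiment 1. By their brightest probe sets, 29 of the 36 members had a higher cultured minus ex vivo value in experiment 2, against 7455 of all 13578 genes. All other tested probe sets of Hmgcs1, Mvk, Msmo1, Sc5d, Scd1 and Acsl4 went the other way, while those of Idi1 and Elovl6, among others, did not. For Fdft1, Lss, Acly, Scd2, Elovl1 and Fads2 the other tested probe sets differed from each other in sign. The part of ST2 RNA in the changes of Sqle, Fads1 and the other members was not tested. The same holds for other cell types. Of 7 tested adipocyte markers 1 rose with the block, Cebpa, while Adipoq, Fabp4 and Lep were below the filter. Lpl, also on this list, had its largest fitted change (2.14) but was not called. The summed intensity of the 10 adipocyte markers measured was 703 and 630 ex vivo and 726, 1025 and 1119 after culture. In bulk RNA, a change in the share of a cell type cannot be told apart from a change in RNA per cell.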

How the data were processed

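RNA of PCs was hybridised to Affymetrix mouse whole-genome arrays. The authors summarised the probes with RMA (submitters' processing notes name GCOS, RMA and affy), and they deposited 1 linear-scale intensity per array for each of 45101 probe sets, from 4.94 to 26947.2, with array medians of 87.05 to 94.14. Precision is limited by the number of arrays (5).

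Control probe sets (64) were left out and intensities were taken to log2. Platform annotation gave 1 gene symbol for 34945 probe sets, several for 932 and none for 9160. The 30477 probe sets that reached an intensity of 50 in 2 or more arrays were fitted with limma 3.58.1 in R 4.3.3 (lmFit, eBayes), with Benjamini-Hochberg adjustment over all of them and a threshold of 0.05. The main model held culture alone. A second model added the experiment named in the labels as a replicate block. Deviations from the group means correlated within experiments (r = 0.749, 0.558 and 0.719). Deviations within a group offset each other, so these 3 values are not independent. Fitted changes in the Results are those with the block unless stated. Adjusted p without the block is printed for Sqle, Fads1 and Abcg1 only. The fit was tested on simulated data. Figures were drawn with matplotlib 3.10.9.

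All 36 members are named. Levels in every array are given for called members, for the 3 with the largest change without the block among mevalonate, later sterol, regulator and fatty acid genes, for the Srebf, Insig and Scd pairs and for Fasn. Levels of Cyp51, Stard4, Acsl3, C1qa, Abca1, Abcg1 and Col1a1 were added after their values were seen. Members and lists were chosen with earlier results of these data known. Alternatives tried were the block, averaging, filters, normalization, moderation, the choice of probe set and leaving out each array. Blocked fits combined with another of these choices, and all alternatives for the difference between experiments, were chosen after seeing the data. Some genes of these pathways were not analysed here.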

Additional observations from a re-analysis of the deposited data

How the results depend on the processing

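The number of arrays limits the precision of every value. The count of probe sets called for culture was 14 and became 550 with the replicate block, 0 with the cultured arrays of experiment 2 averaged, 187 with both, 5 with no filter, 31 at an intensity of at least 100 and 618 at an unadjusted p under 0.01. Leaving out 1 array gave 0 to 257. With the block it was 271 and 153 without cultured array 1 or 2 of experiment 2, 685 at an intensity of at least 100, 206 with no filter, 661 after quantile normalization, 631 with medians centred, 666 with trend and robust moderation, and 531 genes with gene means.

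The count of members called was 0, or 2 with the block (also after quantile normalization, centring and robust moderation). It was 4 with the block at an intensity of at least 100, where 685 of 22748 probe sets were called. The 4 were Sqle, Fads1, Msmo1 (limma adjusted p = 0.0494) and Elovl6 (0.0405). At that floor Elovl6 passed the filter only through the cultured arrays of experiment 2, so its call says little about direction. With the block on gene means it was 6 (Idi1, Sqle, Msmo1, Insig1, Stard4 and Fads1), beside 531 of 13578 genes. At an unadjusted p under 0.01 it was 4, beside 618 of 30477 probe sets. Leaving out 1 array without the block gave 0 to 1, the 1 being Fads1 (1.53) without the cultured array of experiment 1. With the block, Sqle was called in 6 of 10 settings (limma adjusted p from 0.0172 to 0.159) and Fads1 in 6 of 10 (0.0116 to 0.0915).

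Leaving out 1 array moved the median of the sterol enzymes from 0.089 to 0.42, of the fatty acid genes from -0.0059 to 0.19 and of the regulators from 0.33 to 0.45. Choosing the probe set with the highest lowest value gave 0.15 for sterol enzymes and 0.23 for regulators, and centring gave 0.36 for regulators. The count of members that differed between experiments ranged from 0 to 9 without 1 array. Signs turned for Sc5d (-0.017 with the other probe set choice), Fasn (-0.014 centred, -0.036 with the block without cultured array 1 of experiment 2, and -0.12 to 0.19 without 1 array), Scd2 (-0.43 to 0.15 without 1 array) and Srebf1. Srebf1 was -0.05, but 0.059 with the block (the same with the other filters, robust moderation and gene means), 0.051 averaged, with or without the block, and -0.42 to 0.32 without 1 array. With the block it was also 0.021 and 0.081 without the first or second cultured array of experiment 2, 0.063 after quantile normalization and 0.020 with medians centred. The causes were not tested.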

Other observations

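Genes of fatty acid oxidation and lipid storage, which use or hold the products of synthesis, were read in the same fits. None of the 11 genes of mitochondrial fatty acid oxidation was called, with or without the block, and 3 had an unadjusted p under 0.05 with it, against 17.3% of all genes tested. In all 3 pairs 6 were lower and 1 was higher, against 29.7% and 18.9% of all genes. In 5 of the 11 all cultured arrays lay below both ex vivo arrays, against 13% of all genes. The median change with the block was -0.12. Cpt1a, which starts the entry of long chains into mitochondria, was at 8.25 and 8.36 ex vivo and at 8.03, 7.20 and 7.33 after culture, with a change of -0.72 (limma adjusted p = 0.168).

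Of 10 genes for lipid droplets and uptake, 8 were tested and 0 were called with the block, while 2 had an unadjusted p under 0.05. Lpl, lipoprotein lipase, was at 6.34 and 5.16 ex vivo and at 6.95, 8.36 and 8.56 after culture, a change of 2.14 ± 0.57 (SE, limma adjusted p = 0.141). Plin2, a coat protein of lipid droplets, had a change of -0.03. Cycling markers had summed intensities of 3371 and 3192 ex vivo and of 2137, 2266 and 2205 after culture, and 1 of 8 tested, Mcm5, fell with the block.

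Log2 ratios of 3' to 5' control probe sets, a reading of RNA and label quality, were 0.31 and -0.12 ex vivo and 0.77, -0.11 and -0.01 after culture for Actb, and 0.74 and 0.34 ex vivo and 0.63, 0.30 and 0.28 for Gapdh. The arrays of experiment 1 were thus above those of experiment 2 for both genes. The part of this in the differences between the experiments was not tested.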
